A study of Mus musculus with 6 samples.

Results

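Macrophages bind and take up modified lipoproteins, dying cells and antibody-coated particles through dedicated surface receptors, and the genes of 10 such receptors and macrophage surface or lysosomal proteins were followed here: Cd36, Msr1, Mrc1, Mertk, Axl, Cd68, Itgam, Fcgr1, Fcgr2b and Fcgr3. They were chosen by name for their function, not by a measured value, although earlier results of these data were known. All 10 were found among the 18429 genes of the count matrix. The counts came from MARS-seq, a plate-based method in which single sorted cells are lysed in wells and each captured transcript carries a unique molecular identifier (UMI), so that copies of 1 molecule are counted once. The cells were bone marrow-derived macrophages, grown from mouse marrow in medium with 20% L929-conditioned medium. Both genotypes carried a tamoxifen-inducible Cre (creERT2) on both alleles of the Rosa26 locus and came from mice of a mixed strain background that included C57BL/6. The wild-type cells had intact Rad21 alleles, and in the Rad21-/- cells both alleles were flanked by loxP sites and were deleted in culture. Rad21 encodes a subunit of cohesin, the ring complex that holds chromatin loops. All groups, the untreated wild-type cells included, received 200 nM 4-hydroxy-tamoxifen in fresh medium 96 h after plating and were used at day 7. Cells of each genotype were left untreated or were given lipopolysaccharide (LPS), a bacterial cell wall component, at 10 ng/ml for 2 h or 8 h. Each of the 6 combinations of genotype and time is 1 sample. Mice of both sexes, aged 6 weeks to 6 months, served for the study. The age and sex of the mice behind each sample and the markers of the sorting gate were not given in the sources used here.

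Scavenger receptors bind oxidised lipoproteins, bacterial surfaces and other polyanionic ligands. The TAM receptors, named after Tyro3, Axl and Mertk, are tyrosine kinases that recognise phosphatidylserine on dying cells through the bridging ligands Gas6 and protein S. Fc gamma receptors bind the constant part of immunoglobulin G. In the mouse, Fcgr1, Fcgr3 and Fcgr4 are activating and signal through the shared gamma chain Fcer1g, whereas Fcgr2b carries its own inhibitory motif and recruits the phosphatase encoded by Inpp5d.

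The matrix held 1362 cells, at most 270 in a sample, with 1417409 to 2195921 UMIs per sample and a median of 5577 to 7055.5 UMIs in a cell. Wells with more than 25000 UMIs numbered from 1 to 5 in a sample, and those of the wild-type 2 h sample held 45.5% of its UMIs. For this reason the level of a gene is given as mean CPM, the UMIs of the gene per 1000000 UMIs of its own cell, averaged over the cells of a sample with equal weight. Rad21, the deleted gene, had a mean CPM of 60.9, 50.2 and 34.2 in wild-type cells untreated, at 2 h and at 8 h, and of 4.90, 8.15 and 8.60 in Rad21-/- cells, so that every sample followed its label. All 8 macrophage markers examined were in the matrix, Cd68 and Itgam of the receptor genes among them. Their summed mean CPM was 9605, 10651 and 7696 in wild-type cells untreated, at 2 h and at 8 h. It was lower in Rad21-/- cells at each time, with 6331, 7179 and 6488. The lowest share of cells with a UMI of such a marker in a sample was 5.36%. The single B cell marker and the single T cell marker present, Ms4a1 and Cd3g, had a UMI in at most 9.14% and 9.38% of the cells of a sample. Some markers of other cell types had higher shares, at most 17.7% for the 2 dendritic cell markers present (Flt3 and Zbtb46) and 30.4% for the 2 of mast cells or basophils (Cpa3 and Kit). The summed mean CPM of these pairs was 23.7 to 32.4 and 43.8 to 69.8, and their part in the results was not tested. With 1 sample in a group there is no replicate check on any difference below, no p-value was computed, and the 95% intervals given cover counting error only. Cells had been indexed in 24 library pools, all but 1 of which held both genotypes. Each pool held cells of 1 time only, so that pool and time cannot be told apart in a comparison over time. The range over pools of at least 10 cells and the direction within pools that held both genotypes are given as a spread, not as replicates.

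A gene was counted as higher or lower in a comparison when its mean CPM differed at least 1.5-fold, among the 6807 genes with a UMI in at least 20% of the cells of 1 sample or more. Of the 10 receptor genes, 9 reached that share. Mertk did not, with at most 11.7% positive cells, and is described without a call. Axl reached it in 1 sample only, the Rad21-/- cells at 8 h, with 20.1%.

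**Figure D1:**
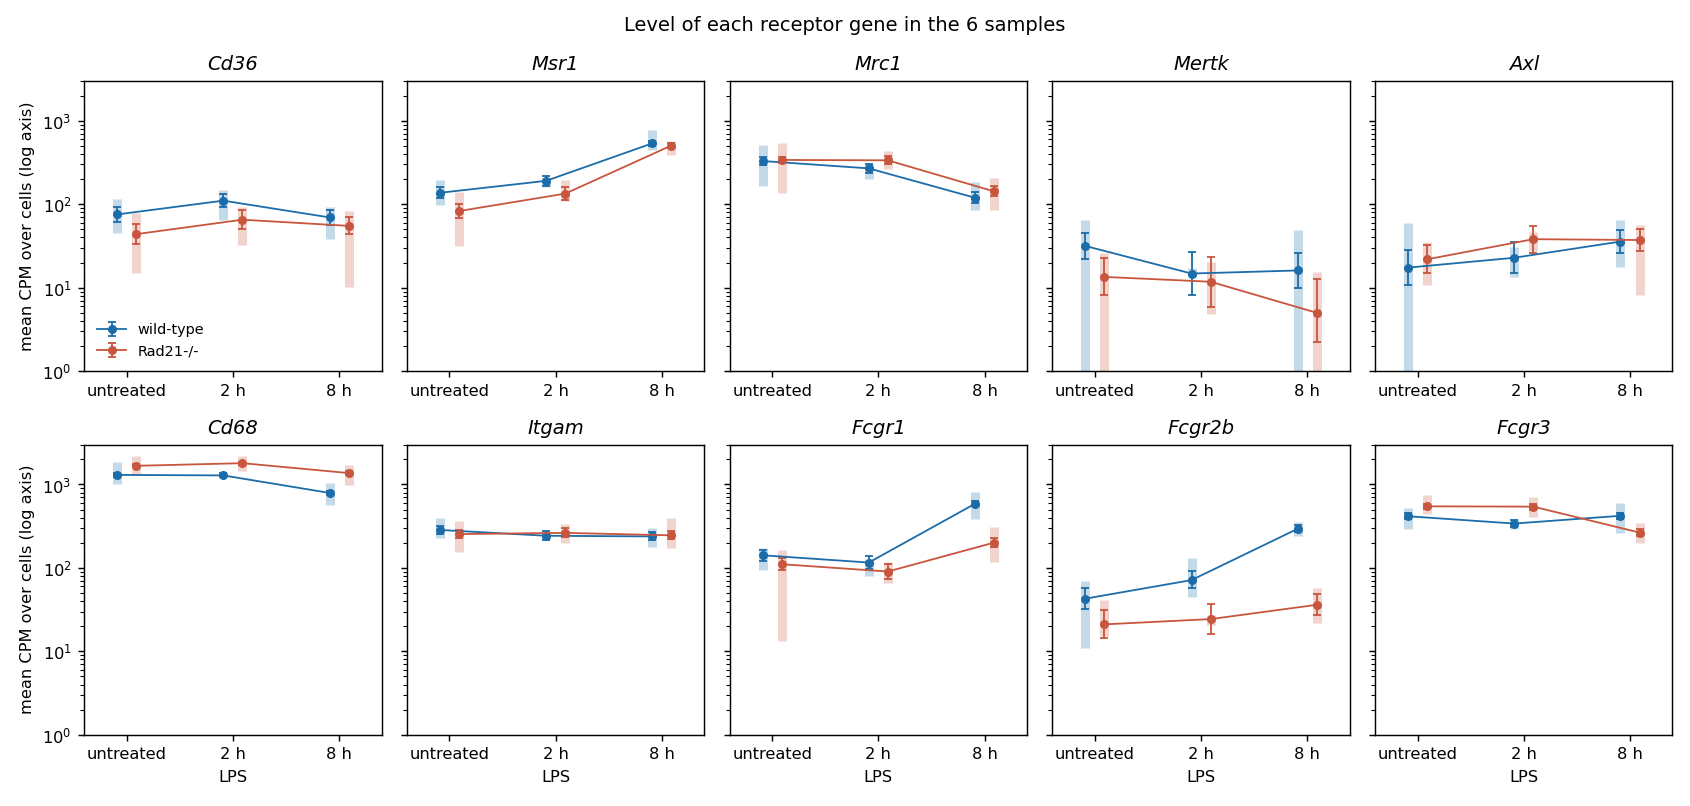
Mean CPM (log axis) of each receptor gene in wild-type (blue) and Rad21-/- (red) cells untreated and after 2 h and 8 h of LPS. Points are sample means, thin bars the 95% counting interval and pale bars the range over library pools, drawn down to 1 CPM where a pool held no UMI. Fcgr2b and Fcgr1 climbed steeply in wild-type cells at 8 h, to 295 and 588 CPM, and reached 36.1 and 201 CPM in Rad21-/- cells, whereas Msr1 reached a similar level in both.

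Among the 9 receptor genes tested, LPS at 8 h raised 4 in wild-type cells, where 14.5% of all tested genes were higher, and lowered 2, where 28.9% of all tested genes were lower. Of the same 9 genes, 4 were higher in Rad21-/- cells at 8 h, against 18.3% of all tested genes, and 2 were lower, against 13.7%. The 4 genes higher were Msr1, Axl, Fcgr1 and Fcgr2b in either genotype. Since Axl entered the tested genes only through the Rad21-/- 8 h sample, its call there was favoured by that entry, and the other 3 do not depend on it. With summed UMIs in place of mean CPM the log2 ratio of Axl in Rad21-/- cells at 8 h was 0.37, under the limit. Mrc1 was lower in both, Cd68 in wild-type cells and Fcgr3 in Rad21-/- cells. The median log2 ratio of the 9 genes at 8 h was 0.02 in wild-type cells, beside -0.21 over all tested genes, and 0.33 in Rad21-/- cells, beside 0.03.

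At 2 h few of the receptor genes had moved by mean CPM. In wild-type cells only Fcgr2b was higher, 1 of 9 tested against 10.0% of all tested genes, and none was lower, against 11.3%. Msr1 and Axl were higher in Rad21-/- cells, 2 of 9 against 10.7%, and none was lower, against 7.82%. With every cell reduced at random to 3800 UMIs, Cd36, Msr1 and Fcgr2b were higher in wild-type cells, with log2 ratios of 0.79, 0.67 and 0.73. Fcgr1 was then lower, with -0.71. The wild-type call by mean CPM rested on a few pools. Fcgr2b rose 1.67-fold with all cells, but no receptor gene was higher without a pool that held 43 of the untreated wild-type cells, and the log2 ratio of Fcgr2b was 0.33 without a pool of 43 wild-type cells at 2 h. Without a pool of 46 Rad21-/- cells at 2 h, 1 gene instead of 2 was higher there. Without a pool of 46 Rad21-/- cells at 8 h, 2 instead of 4 were higher, as the log2 ratios of Axl and Fcgr2b then stood at 0.57 and 0.54.

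Msr1, on chromosome 8 (39543232 to 39642750 in GRCm38.p6), encodes the class A scavenger receptor that takes up modified lipoproteins. Mean CPM was 137.3 untreated, 191 at 2 h and 538 at 8 h in wild-type cells, and 82.9, 134 and 506 in Rad21-/- cells. Levels were highest at 8 h in both genotypes, and no pool at 8 h overlapped with an untreated pool of the same genotype. The rise at 8 h was 3.92-fold in wild-type cells (log2 ratio 1.97, counting interval 1.73 to 2.20) and 6.11-fold in Rad21-/- cells (2.61, 2.32 to 2.90). Untreated Rad21-/- cells started lower, with a log2 ratio to wild-type cells of -0.73 and the same direction in 7 of 8 pools. At 8 h that ratio was -0.09, with an interval of -0.23 to 0.06, and the share of cells with a UMI was 91.8% in wild-type and 94.6% in Rad21-/- cells.

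Cd36, on chromosome 5 (17781690 to 17888959), encodes a class B scavenger receptor for oxidised lipoproteins and long-chain fatty acids. Its mean CPM was 75.6, 111 and 69.6 in wild-type cells untreated, at 2 h and at 8 h, and 43.9, 65.3 and 55.1 in Rad21-/- cells. The 3 wild-type samples were the highest of the 6, although every pair of neighbours in the order of samples had overlapping counting intervals. Cd36 was lower in Rad21-/- cells when untreated, with a log2 ratio of -0.78 (counting interval -1.24 to -0.32) and the same direction in 8 of 8 pools. It was also lower at 2 h, with -0.76 and 4 of 4 pools. At 8 h the ratio was -0.34, with an interval of -0.76 to 0.09 and 5 of 6 pools lower. At 2 h the log2 ratio to untreated cells was 0.55 in wild-type and 0.57 in Rad21-/- cells, just under the 1.5-fold limit, and the side of that limit depended on the processing. With summed UMIs these ratios were 0.89 and 0.81, and without a single pool they reached up to 0.74 and 0.84.

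Mrc1, on chromosome 2 (14229414 to 14332023), encodes the mannose receptor CD206, an endocytic lectin of alternatively activated macrophages. Mean CPM was 330.0, 269 and 120 in wild-type cells untreated, at 2 h and at 8 h, and 340.0, 336 and 143 in Rad21-/- cells. Both 8 h samples were the lowest. Pool ranges of untreated and 8 h cells overlapped in both genotypes. Mrc1 fell by 1.46 on the log2 scale at 8 h in wild-type cells (interval -1.72 to -1.20) and by 1.25 in Rad21-/- cells (-1.49 to -1.02). The ratio between genotypes lay between 0.04 and 0.32 at the 3 times, under the 1.5-fold limit. The share of positive cells went from 73.2% to 47.5% in wild-type cells and from 72.6% to 53.6% in Rad21-/- cells.

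Msr1 and Mrc1 thus moved in opposite directions at 8 h, and both were found in the same cells. With every cell reduced at random to 3800 UMIs, Msr1 was detected in 85.5% of Mrc1-positive and 82.9% of Mrc1-negative wild-type cells at 8 h, where the counting intervals of 75.6 to 92.5% and 75.95 to 88.5% overlapped. The shares in Rad21-/- cells were 89.5% and 88.0%.

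The TAM receptors were scarce. Axl, on chromosome 7 (25756500 to 25788924), had a mean CPM of 17.4, 22.9 and 35.7 in wild-type cells untreated, at 2 h and at 8 h, and of 21.9, 38.2 and 37.3 in Rad21-/- cells. The 2 untreated samples were the lowest, with overlapping intervals between all neighbours in the order. The log2 ratio of 8 h to untreated was 1.04 (counting interval 0.30 to 1.78) in wild-type and 0.77 (0.11 to 1.42) in Rad21-/- cells, and pool ranges overlapped in both.

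Mertk, on chromosome 2 (128698915 to 128803162), encodes the TAM receptor used for the uptake of apoptotic cells. Its mean CPM was 31.7, 14.8 and 16.1 in wild-type cells and 13.5, 11.8 and 5.003 in Rad21-/- cells. The share of positive cells ran from 11.7% in untreated wild-type cells to 4.46% in Rad21-/- cells at 8 h. No difference between samples is drawn from such counts, which were 12 to 46 UMIs in a sample. As a share of the UMIs of Axl and Mertk together, Axl made up 37.5% in untreated wild-type cells, 63.5% at 2 h and 74.2% at 8 h. The values for Rad21-/- cells were 65.8%, 74.6% and 85.5%. The untreated wild-type sample was the only one below 50%, with an interval of 25.7 to 50.5% on 64 UMIs, and the pools of the samples overlapped. In wild-type cells at 2 h, 43 of the 126 UMIs remained without wells above 25000 UMIs, and Axl made up 65.1% of them. These percentages rest on the same low counts of Mertk, and no difference between samples is drawn from them either.

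Cd68, on chromosome 11 (69664213 to 69666170), encodes a glycoprotein of late endosomes and lysosomes and is a common macrophage marker. Its mean CPM was 1303, 1284 and 792 in wild-type cells untreated, at 2 h and at 8 h, and 1674, 1801 and 1371 in Rad21-/- cells. All 3 Rad21-/- samples lay above the 3 wild-type samples, although the counting intervals of Rad21-/- cells at 8 h and untreated wild-type cells overlapped. Within pools the Rad21-/- cells were higher in 8 of 8 untreated, 4 of 4 at 2 h and 6 of 6 at 8 h. The ratio passed 1.5-fold at 8 h only, at log2 0.79 (interval 0.69 to 0.90), after 0.36 untreated and 0.49 at 2 h. LPS at 8 h gave a log2 ratio of -0.72 in wild-type and -0.29 in Rad21-/- cells. The median log2 ratio of all tested genes was -0.21 in wild-type cells at 8 h against untreated and 0.23 in Rad21-/- against wild-type cells at 8 h. Relative to those medians Cd68 stood at -0.51 in wild-type cells and at 0.56 between genotypes at 8 h, both under the 1.5-fold limit.

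Itgam, on chromosome 7 (128062640 to 128118491), encodes CD11b, the alpha chain of complement receptor 3, which takes up complement-coated particles. It was the steadiest of the 10 genes, with a mean CPM of 285, 243 and 238 in wild-type cells and 254, 263 and 246 in Rad21-/- cells. The highest sample was 1.196-fold above the lowest, and all neighbours in the order of samples had overlapping intervals. From 68.5% to 81.7% of the cells of a sample held a UMI of it.

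Fcgr2b, the inhibitory Fc gamma receptor, had the widest range of the 10 genes, with 13.99-fold between the highest and the lowest sample. Its mean CPM was 42.8 untreated, 71.4 at 2 h and 295 at 8 h in wild-type cells, and 21.1, 24.4 and 36.1 in Rad21-/- cells. The wild-type 8 h sample stood alone, and its lowest pool, at 239 CPM, was above every pool of the other samples, of which the highest reached 130 CPM in wild-type cells at 2 h. The increase at 8 h was 6.88-fold in wild-type cells (log2 ratio 2.78, counting interval 2.38 to 3.18) and 1.72-fold in Rad21-/- cells (0.78, 0.16 to 1.40). The log2 ratio of Rad21-/- to wild-type cells was -1.02 before LPS (interval -1.64 to -0.41). It was -1.55 after 2 h of LPS, with an interval of -2.17 to -0.93, and -3.03 after 8 h, with -3.43 to -2.62. The direction was the same in 6 of 8, 4 of 4 and 6 of 6 pools.

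Fcgr1, the high-affinity activating receptor CD64, had a mean CPM of 142 untreated, 115.96 at 2 h and 588 at 8 h in wild-type cells, and of 111, 90.5 and 201 in Rad21-/- cells. Levels at 2 h lay at or under the untreated level in both genotypes with overlapping intervals, and both 8 h samples were above all others. With every cell reduced to 3800 UMIs, the wild-type log2 ratio of 2 h to untreated was -0.71, past the 1.5-fold limit. The rise at 8 h was 4.14-fold in wild-type cells (log2 ratio 2.05, counting interval 1.82 to 2.28) and 1.82-fold in Rad21-/- cells (0.86, 0.59 to 1.14). The log2 ratio between genotypes was -0.36 both untreated and at 2 h, and -1.55 at 8 h (-1.74 to -1.36). At 8 h Rad21-/- cells were lower in 6 of 6 pools, and the pool ranges of the genotypes, 383 to 804 CPM in wild-type and 118 to 313 CPM in Rad21-/- cells, did not overlap.

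Fcgr3, the low-affinity activating receptor, took another course. Its mean CPM was 416 untreated, 340.3 at 2 h and 421 at 8 h in wild-type cells, and 547, 543 and 266 in Rad21-/- cells. Rad21-/- cells were thus above wild-type cells untreated and at 2 h and below them at 8 h. Between genotypes the log2 ratio was 0.39 before LPS (counting interval 0.23 to 0.55). It was 0.67 after 2 h, with an interval of 0.49 to 0.86, and -0.67 after 8 h, with -0.85 to -0.48. Rad21-/- cells were higher in 8 of 8 pools untreated and in 4 of 4 at 2 h, and lower in 6 of 6 at 8 h. Fcgr3 fell by 1.04 on the log2 scale in Rad21-/- cells from untreated to 8 h, with no overlap of pool ranges, whereas the wild-type ratio was 0.02 with an interval of -0.15 to 0.19.

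**Figure D2:**
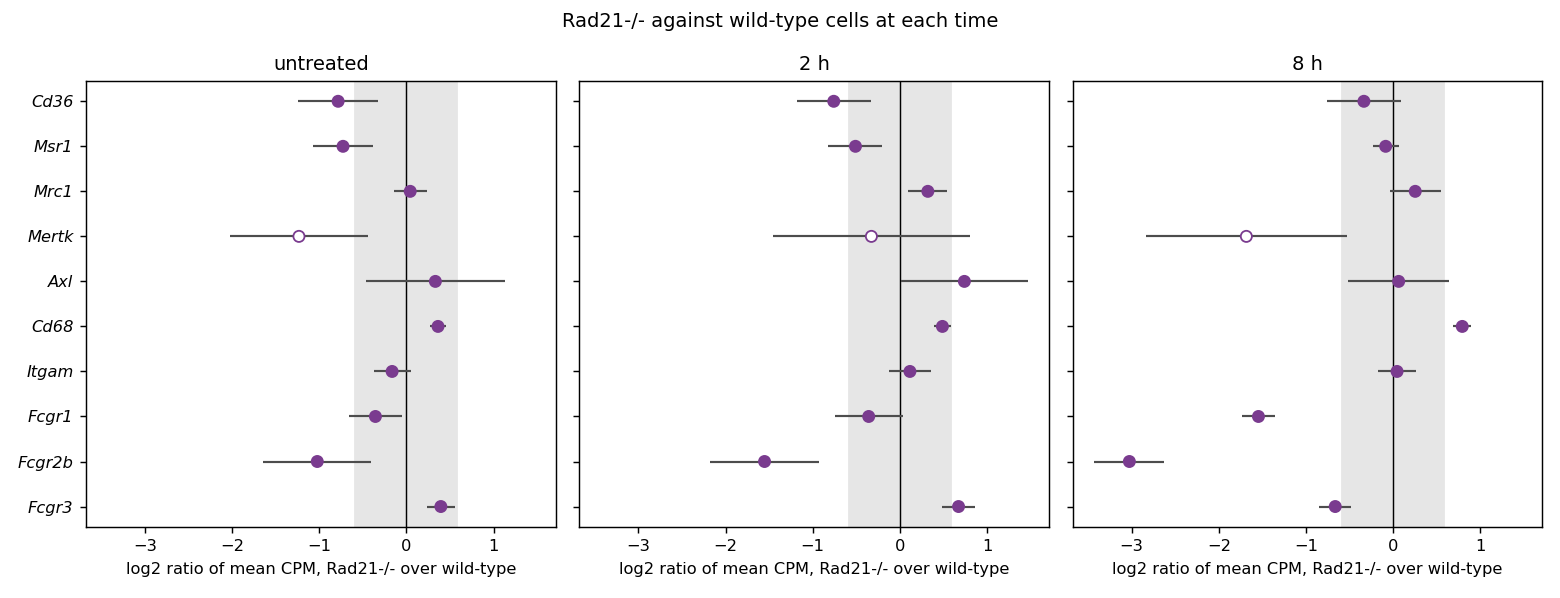
Log2 ratio of mean CPM in Rad21-/- over wild-type cells for each receptor gene, untreated and at 2 h and 8 h of LPS. Lines are 95% counting intervals, the grey band marks ratios under 1.5-fold, and the open point is Mertk, which was not tested. Fcgr2b moved from -1.02 to -3.03, and Fcgr3 crossed from 0.67 at 2 h to -0.67 at 8 h.

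Between genotypes, 3 of the 9 tested genes were lower in untreated Rad21-/- cells, namely Cd36, Msr1 and Fcgr2b, against 13.6% of all tested genes, and none was higher, against 6.45%. At 2 h Cd36 and Fcgr2b were lower, 2 of 9 against 13.6%, and Axl and Fcgr3 were higher, 2 of 9 against 10.9%. The log2 ratio of Axl, 0.74 here, turned to -0.14 with summed UMIs and was 0.10 with each cell thinned to 3800 UMIs. Neither Axl nor Fcgr3 passed 1.5-fold without the pool that held 45 Rad21-/- and 43 wild-type cells, with log2 ratios of 0.55 and 0.58. At 8 h the 3 Fc gamma receptor genes were lower, 3 of 9 against 10.9%, and Cd68 was higher, 1 of 9 against 23.7%. Without a pool of 44 Rad21-/- and 48 wild-type cells, Fcgr3 stood at -0.56 and was no longer past the limit at 8 h. Genes lower in every one of the 6 shared pools at 8 h made up 9.03% of all tested genes, and among the receptors these were Fcgr1, Fcgr2b and Fcgr3. The library pools give a further description. The pool ranges of 8 h and untreated wild-type cells did not overlap, and 8 h was higher, for 3 of the 9 genes, Msr1, Fcgr1 and Fcgr2b, beside 5.74% of all tested genes, and no gene was lower in this way, beside 5.02%. For Rad21-/- cells at 8 h this held for Msr1, which was higher, beside 5.13%, and for Fcgr3, which was lower, beside 2.82%. At 2 h it held for none of the 9 in either direction, beside 3.16% of tested genes higher and 1.15% lower for wild-type cells, and 3.01% and 0.632% for Rad21-/- cells. Between untreated genotypes it held for none, beside 0.588% higher and 1.45% lower. At 2 h Cd68 and Fcgr3 were higher in Rad21-/- cells without overlap, beside 5.36%, and Fcgr2b was lower, beside 6.46%. At 8 h none was higher, beside 3.25%, and Fcgr1 and Fcgr2b were lower, beside 3.67%. Counted by direction within shared pools, Cd68 and Fcgr3 were higher in every pool untreated, beside 3.35% of all tested genes, and Cd36 was lower, beside 5.02%. At 2 h Axl, Cd68 and Fcgr3 were higher in every pool, beside 15.9%, and Cd36, Msr1, Fcgr1 and Fcgr2b were lower, beside 15.0%. At 8 h Cd68 was higher in every pool, beside 16.3%. The 3 comparisons of genotypes use separate samples, but each of them shares its samples with the comparisons over time.

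On chromosome 1 Fcgr2b (170960558 to 170976071) and Fcgr3 (171051169 to 171065915) lie within 105358 bp of each other, with Fcgr4 (171018926 to 171029761), a further activating receptor, between them, whereas Fcgr1 is on chromosome 3 (96282909 to 96293969). Fcgr4 was not among the 10 genes and had a mean CPM of 58.9, 39.4 and 217 in wild-type cells and of 26.1, 17.1 and 42.1 in Rad21-/- cells. Like Fcgr2b and Fcgr1 it was highest in wild-type cells at 8 h. The neighbours on chromosome 1 therefore did not share a course, since Fcgr3 had a log2 ratio of 0.02 over the same 8 h in wild-type cells. Parts of Fcgr2b and Fcgr3 are similar in sequence. The authors kept only reads whose mapping was unambiguous, and how many reads that fit both genes were left out is not given.

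The sequences upstream of the 3 Fc gamma receptor genes among the 10 are shown because all 3 were lower in Rad21-/- cells at 8 h. They are the 250 bases before an annotated start from RefSeq (GRCm38.p6), written 5′ to 3′ on the minus strand, on which all 3 genes lie. Entries existed for 9 of the 10 receptor genes. The positions are chr3:96293970-96294219 for Fcgr1, chr1:170976072-170976321 for Fcgr2b and chr1:171059404-171059653 for Fcgr3, the last of which belongs to a start 6512 bp inside the annotated span of the gene. Capitals mark matches, on either strand, to 4 short motifs: the core of the interferon-stimulated response element (GAAANNGAAA), the gamma-activated site of STAT factors (TTCNNNGAA), the core of the PU.1 site (GAGGAA) and a form of the NF-kappaB site (GGGNNNTTCC).
Fcgr1: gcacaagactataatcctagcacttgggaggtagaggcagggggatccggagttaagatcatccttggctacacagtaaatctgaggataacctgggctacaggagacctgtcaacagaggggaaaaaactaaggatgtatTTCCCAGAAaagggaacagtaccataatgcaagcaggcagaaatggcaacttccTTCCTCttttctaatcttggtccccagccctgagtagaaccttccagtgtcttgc
Fcgr2b: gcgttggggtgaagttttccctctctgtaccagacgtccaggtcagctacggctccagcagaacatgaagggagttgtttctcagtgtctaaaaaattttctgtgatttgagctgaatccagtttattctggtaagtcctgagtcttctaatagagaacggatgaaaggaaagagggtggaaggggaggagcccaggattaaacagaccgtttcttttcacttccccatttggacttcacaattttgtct
Fcgr3: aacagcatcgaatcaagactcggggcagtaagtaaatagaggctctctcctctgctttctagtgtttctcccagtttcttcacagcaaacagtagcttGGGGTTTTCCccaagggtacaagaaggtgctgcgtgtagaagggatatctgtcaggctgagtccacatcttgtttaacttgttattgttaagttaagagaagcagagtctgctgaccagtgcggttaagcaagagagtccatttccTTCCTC
The Fcgr1 sequence held a gamma-activated site with its first base 109 bases before the start and a PU.1 core on the opposite strand 55 bases before it. The Fcgr3 sequence held a PU.1 core on the opposite strand just before the start and an NF-kappaB match 152 bases before it, and the Fcgr2b sequence held none of the 4. Among windows not shown, that of Fcgr4 held an interferon motif 73 bases and a PU.1 core 22 bases before its start. A PU.1 core was also found upstream of Mrc1, Axl, Cd68 and Itgam. Of the 32851 RefSeq windows of this length, 2.98% held the interferon motif, 7.02% the gamma-activated site, 23.3% the PU.1 core and 4.65% the NF-kappaB form. A match describes letters in this window and is not evidence of binding.

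The make-up of the Fc gamma receptor UMIs needs no scaling between cells, since all 4 genes are counted in the same wells. It is a percentage of summed UMIs, so deep wells weigh more in it. Fcgr2b made up 7.20% of the UMIs of Fcgr1, Fcgr2b, Fcgr3 and Fcgr4 in untreated wild-type cells, 13.5% at 2 h and 19.2% at 8 h (counting interval 17.8 to 20.7%). The corresponding values in Rad21-/- cells were 3.07%, 3.92% and 7.41% (5.96 to 9.10%). The lowest wild-type pool at 8 h, with 15.8%, was above the highest Rad21-/- pool, with 11.4%. Fcgr3 made up most UMIs in 4 samples, with 62.98% and 77.2% in untreated wild-type and Rad21-/- cells and 57.02% and 80.8% at 2 h. At 8 h it made up 28.1% in wild-type and 48.5% in Rad21-/- cells, again without overlap of pools. These percentages do not follow its level. The mean CPM of Fcgr3 was 416 untreated and 421 at 8 h in wild-type cells, and 266 at 8 h in Rad21-/- cells. The share of Fcgr1 was close at 8 h, with 38.3% and 35.7%. The share of Fcgr4 was 14.4% and 8.47% at that time. Without wells above 25000 UMIs, Fcgr3 made up 60.8% in wild-type cells at 2 h, on 688 instead of 1331 UMIs. Fcgr2b at 8 h was then 19.4% in wild-type and 6.56% in Rad21-/- cells.

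**Figure D3:**
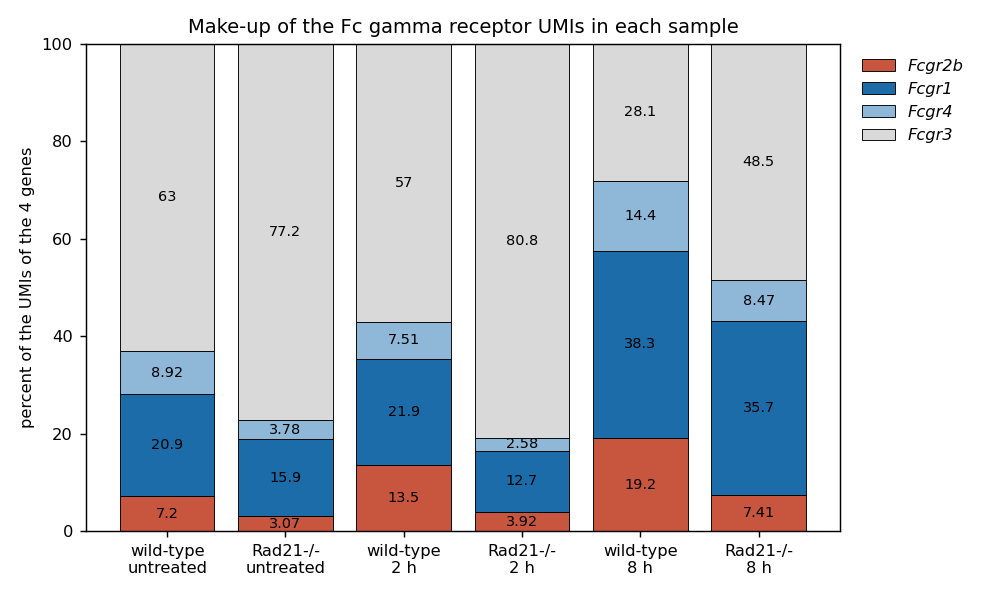
UMIs of the 4 Fc gamma receptor genes in each of the 6 samples, as a percentage of their sum. The part of the inhibitory Fcgr2b grew to 19.2% in wild-type cells at 8 h and was 7.41% in Rad21-/- cells. The part of Fcgr3 went from 62.98% to 28.1% in wild-type cells, while its mean CPM was 416 untreated and 421 at 8 h.

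A change in mean CPM can come from more positive cells or from more UMIs in each of them. At this depth these cannot be told apart. A low level leaves many cells without a UMI, so an even rise in all cells also raises the share of positive cells. The median wild-type cell held 0 UMIs of Fcgr2b untreated and 1 at 8 h. Of untreated wild-type cells 49.8% and 50.2% already held a UMI of Fcgr1 and Msr1. This limits their share part and leaves more of a rise to the level part. As a description only, the log2 ratio was split into the log2 ratio of the share of cells with a UMI and that of the mean CPM of positive cells. For Fcgr2b in wild-type cells at 8 h the share contributed 1.96 and the level 0.82, as positive cells went from 18.4% to 71.6%. For Fcgr1 the parts were 0.86 and 1.19, and for Msr1 0.87 and 1.10. The smaller rise of Fcgr2b in Rad21-/- cells had parts of 0.96 for the share and -0.18 for the level. Msr1 in these cells had parts of 1.46 and 1.15. At least 2 UMIs of Fcgr2b were held by 1.85% of Rad21-/- cells untreated and 5.36% at 8 h, so most positive cells held a single UMI. Their CPM then follows the depth of the well, which had a median of 5577 UMIs untreated and 7055.5 at 8 h. The level part of Fcgr2b was therefore not separated from depth. For the fall of Fcgr3 in Rad21-/- cells the level part was -0.81 and the share part -0.24. For that of Cd68 in wild-type cells the parts were -0.62 and -0.09, in a gene with a UMI in over 90% of all cells of each sample.

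**Figure D4:**
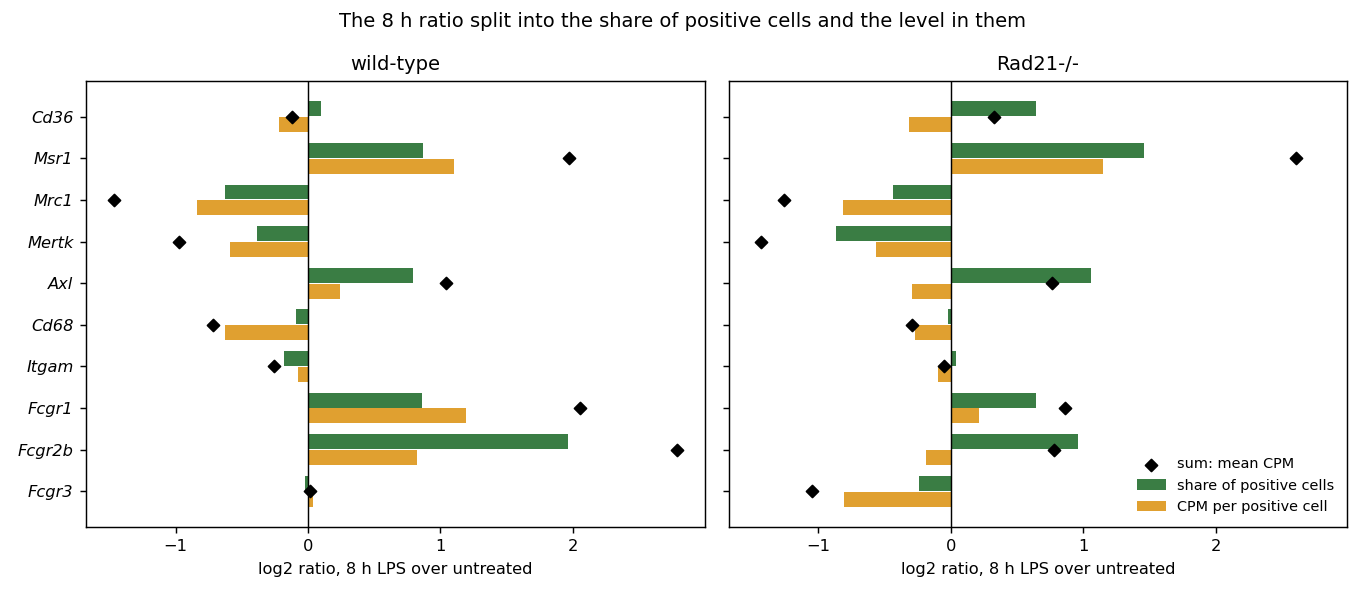
Log2 ratio of 8 h of LPS over untreated cells for each receptor gene, split into the share of cells with a UMI (green) and the CPM of positive cells (orange), with their sum as a diamond, for wild-type (left) and Rad21-/- cells (right). For Fcgr2b the share part was 1.96 in wild-type and 0.96 in Rad21-/- cells. The split cannot tell more expressing cells from a higher level in all cells.

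The share of positive cells depends on depth, so it was taken again with every cell reduced to 3800 UMIs, which left out 21 to 47 shallower cells in a sample. Fcgr2b was then detected in 14.1%, 21.2% and 60.5% of wild-type cells untreated, at 2 h and at 8 h, and in 5.83%, 9.74% and 12.3% of Rad21-/- cells. Fcgr1 was detected in 38.02%, 27.3% and 81.6% of wild-type and in 33.2%, 29.9% and 42.9% of Rad21-/- cells. The order of the 8 h samples was the same as with all UMIs for both genes. A cell reduced in this way held a UMI of a median of 5 of the 10 receptor genes in wild-type cells at 8 h and of 4 in each of the other samples.

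Fcgr1 and Fcgr2b both rose in wild-type cells at 8 h, and a difference in Fcgr2b between cells with and without Fcgr1 was not detectable at this depth. Of the Fcgr1-positive cells 60.8% held a UMI of Fcgr2b, and of the Fcgr1-negative cells 59.5% did, with counting intervals of 53.3 to 67.8% and 43.3 to 74.4%. For Fcgr4 the shares were 52.7% and 35.7%, with intervals of 45.3 to 60.04% and 21.6 to 51.97%, which overlap. Cells of 1 sample are not replicates, and these shares describe this sample only.

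The genes whose pattern over the 6 samples was most like that of the 3 widest-ranging receptor genes were found by the root mean square difference of log2 mean CPM, each gene being centred on its own mean, among 6783 genes. For Fcgr2b these were Wfdc17, Gm1966 and Apol9b, with differences of 0.31, 0.34 and 0.37. For Fcgr1 they were Casp1, the protease of the inflammasome, RP23-234C22.2 and Scimp, an adaptor of immune receptors, with 0.14, 0.16 and 0.19. For Msr1 they were Dram1, Herc6 and Slc2a6, with 0.21, 0.22 and 0.23. The course of Casp1 was 67.5, 50.7 and 288 CPM in wild-type and 41.4, 42.5 and 99.7 CPM in Rad21-/- cells. Other matches had low levels. In their lowest samples Scimp had 6.06, Apol9b 6.35, Gm1966 7.31 and RP23-234C22.2 9.27 CPM. The differences carry no counting interval, so matches at such levels are uncertain.

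The genes that work with Fc receptors were taken from a list of 18, of which 14 were tested. In wild-type cells at 8 h 8 were higher and 2 lower, against 14.5% and 28.9% of all tested genes, with a median log2 ratio of 0.76 beside -0.21 over all tested genes. For Rad21-/- cells the counts were 7 higher and 1 lower, against 18.3% and 13.7%, with a median of 0.52 beside 0.03. Lcp2, the adaptor SLP-76, rose 4.98-fold in wild-type and 4.91-fold in Rad21-/- cells. Inpp5d, the phosphatase recruited by Fcgr2b, had log2 ratios of -1.95 and -1.80. It was higher in Rad21-/- than in wild-type cells at 8 h, with 36.8 against 21.5 CPM, while Fcgr2b was lower. The gamma chain Fcer1g, named for its role and outside the rule for named genes, had 2668, 2426 and 3144 CPM in wild-type and 3200, 2901 and 3630 CPM in Rad21-/- cells, so its highest sample was above its lowest by less than the range of any of the 3 Fc gamma receptor genes among the 10. Between genotypes at 8 h, 1 gene of this list was higher and 3 were lower, against 23.7% and 10.9% of all tested genes, among them Fcgr4 with a log2 ratio of -2.37 and Pik3cd with -1.11.

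The partners of the TAM receptors and of the uptake of dying cells formed a list of 20, of which 15 were tested. At 8 h 2 were higher and 8 lower in wild-type cells, against 14.5% and 28.9% of all tested genes, with a median log2 ratio of -0.61 beside -0.21. In Rad21-/- cells 4 were higher and 7 lower, against 18.3% and 13.7%, with a median of -0.57 beside 0.03. Gas6, the ligand of Axl and Mertk, had a mean CPM of 883, 638 and 199 in wild-type and of 1635, 1417 and 521 in Rad21-/- cells, so it was lowest at 8 h in both and higher in Rad21-/- cells at every time. Stab1, a receptor for phosphatidylserine, fell by 2.08 on the log2 scale in wild-type cells at 8 h and was 2.11-fold higher in Rad21-/- than in wild-type cells at that time. Pros1, the gene of protein S, was higher in Rad21-/- cells by 0.89 untreated and 1.36 at 2 h on the log2 scale. Between untreated genotypes 3 genes of the list were higher in Rad21-/- cells and 1 was lower, against 6.45% and 13.6% of all tested genes. At 2 h 2 were higher and 1 was lower, against 10.9% and 13.6%. The lower gene was Lrp1 at both times, with log2 ratios of -0.65 and -0.62. At 8 h 6 genes of the list were higher in Rad21-/- cells and none was lower, against 23.7% and 10.9%, with a median of 0.45 beside 0.23 over all tested genes.

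Other scavenger and pattern receptors formed a list of 18 with 12 tested, of which 6 were higher and 5 lower at 8 h in wild-type cells, against 14.5% and 28.9% of all tested genes, and likewise 6 and 5 in Rad21-/- cells, against 18.3% and 13.7%. Clec4e, the receptor Mincle, rose 17.5-fold in wild-type cells at 8 h, to 1664 CPM, and from 10.96 to 1621 CPM in Rad21-/- cells. Cd14, the co-receptor for LPS, rose 3.03-fold in wild-type and 7.48-fold in Rad21-/- cells, from 638 and 135 CPM. Scarb1, a class B receptor for high-density lipoprotein, fell in wild-type cells, with a log2 ratio of -1.80, and was 3.94-fold higher in Rad21-/- cells at 8 h. Between genotypes, 3 of the 12 were higher in untreated Rad21-/- cells, namely Scarb1, Trem2 and Tyrobp, against 6.45% of all tested genes. Another 5 were lower, against 13.6%, among them Clec4e and Cd14, with log2 ratios of -3.11 and -2.24. At 2 h 4 were higher and 5 lower in Rad21-/- cells, against 10.9% and 13.6%, and at 8 h 5 were higher and 2 lower, against 23.7% and 10.9%. The last list held 12 genes of other integrin chains and of integrin function, with 8 tested, and most of them do not encode partners of CD11b. In wild-type cells at 8 h 2 were higher, Itga5 and Icam1, and 1 was lower, Itga6, against 14.5% and 28.9% of all tested genes. In Rad21-/- cells 3 were higher, against 18.3%. Icam1, a ligand of CD11b, was highest at 2 h, with 491 CPM in wild-type and 643 CPM in Rad21-/- cells from 34.8 and 45.0 CPM untreated, while Itgam itself stayed within its narrow range.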

How the data were processed

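Single macrophages were sorted into wells and sequenced by MARS-seq. The authors demultiplexed the reads, mapped them with GEMTools to GRCm38.p4 with a Gencode annotation, discarded wells by their spike-in, mapped (under 60%) and total reads, and deposited the collapsed UMI counts of each gene in each well, not normalized. Cells were assigned to samples and library pools by their column names, and 0 columns were left unassigned. CPM, shares with exact Clopper-Pearson intervals, mean CPM with Fay-Feuer intervals, thinning to 3800 UMIs and ratios were obtained in Python 3.11.15 (scipy 1.17.1, numpy 2.4.6, pandas 2.3.3). Figures were made in matplotlib 3.10.9. A value of 0 in both samples gave no ratio and was left out of medians. The receptor genes, the 4 gene lists and the comparisons were chosen with earlier results of these data known. Named list genes were up to 4 per list and comparison with the largest absolute log2 ratio. Msr1 had no promoter entry. The steps were tested on simulated counts for the wild-type 8 h comparison with 6807 genes, where 97% of genes raised 2-fold and 90% of genes lowered 2-fold were called, with 3.97% of unchanged genes. All simulated cells were drawn from the pooled untreated wild-type profile, so these percentages cover counting noise and not variation between cells, pools or cultures. The alternatives were thinning, leaving out deep wells or each pool, summed UMIs, equal weight per pool, centring on the median of tested genes, at least 2 UMIs per positive cell, all genes with a UMI in both samples and a 2-fold limit. The other experiments of the study were not analysed here.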

Additional observations from a re-analysis of the deposited data

Results flagged for a closer look

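The difference in Fcgr3 between genotypes had opposite directions before and after 8 h of LPS, and all shared library pools of a time had the same sign. Each time has its own pools. The log2 ratio of mean CPM of Rad21-/- over wild-type cells was 0.39 untreated, with all 8 pools above 0, and 0.67 at 2 h, with all 4 pools above 0. It was -0.67 at 8 h, with all 6 pools below 0. Each time point is 1 sample per genotype, and the change in direction was not tested.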

How the results depend on the processing

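No paired analysis was possible because the groups compared share 1 replicate number at most, each genotype and time being 1 sample. A genotype difference over the 3 times together was not run. The counts of receptor genes at least 1.5-fold higher or lower were within 1.5 times of those reported without wells above 25000 UMIs and with equal weight per pool. With thinned cells, 3 genes were higher and 1 (Fcgr1) lower in wild-type cells at 2 h against untreated, and 1 was higher in Rad21-/- than in wild-type cells at 2 h. With summed UMIs, 3 were higher in wild-type cells at 2 h and 1 in untreated Rad21-/- against wild-type cells, and the log2 ratio of Axl between genotypes at 2 h turned from 0.74 to -0.14. Centred on the median gene, 2 were higher in wild-type cells at 2 h, 1 was lower in wild-type cells at 8 h, and 0 were higher in Rad21-/- than in wild-type cells at 8 h. At a 2-fold limit, 0 were higher at 2 h in either genotype, 1 was lower in wild-type cells at 8 h, 1 was higher in Rad21-/- cells at 8 h, 1 was lower untreated between genotypes, and at 2 h 0 were higher and 1 lower. Between genotypes at 8 h, 0 were higher at that limit. The cause of the other shifts was not tested. Leaving out each pool gave 0 to 2 genes higher in wild-type cells at 2 h, 1 to 3 in Rad21-/- cells at 2 h, 2 to 5 in Rad21-/- cells at 8 h and 0 to 2 between genotypes at 2 h, and counts for wild-type cells at 8 h stayed at 4 higher and 2 lower. Summed UMIs moved the median gene from -0.07 to 0.12 in wild-type cells at 2 h. With at least 2 UMIs asked of a positive cell, 58 of 60 shares moved beyond their counting interval. Over all genes with a UMI in both samples, 8 of 14 percentages of genes past the limit moved over 1.5 times. Counts were low for Mertk and Axl, with 12 to 80 UMIs in a sample, and for Fcgr2b in Rad21-/- cells, with 39 untreated and 38 at 2 h.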
